A study of Antirrhinum majus with 21 samples.

Results

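The genes described here are the 188 snapdragon (Antirrhinum majus) genes with the most annotated transcripts among those expressed in every corolla library. A gene was eligible if it reached at least 5 CPM (reads scaled to the size of the library) in all 21 libraries, which 12855 of the 37234 annotated genes did. The 200 eligible genes with the most transcripts were taken, with ties broken by gene ID, and 12 were left out because they lay on assembly sequences listed in the rule (3 genes) or were placed on 2 or more sequences (9 genes). The 188 genes carry 1174 of the 51926 annotated transcripts: 49 genes have 5 transcripts, 92 have 6, 22 have 7, 12 have 8, 8 have 9, 2 have 10, 2 have 11 and 1 has 13. What was measured for each of them is the share of every transcript in the gene's summed TPM, an abundance scaled to transcript length and library size. The leading transcript held a median of 57.9% of its gene's TPM. Over all 21 libraries, 1 of which stood apart, genotype means of a share differed by about as much as plants of 1 genotype would make them differ. In 1 gene, AnMG0508951400, an early-ending transcript held 97.3% ± 3.53 (SD, n = 3) of the gene's TPM in the pale recombinant genotype and at most 31.3% in any other library.

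The last gene inside the limit, AnMG0001913400, and the first one outside it, AnMG0001915100, both have 5 transcripts and lie at 30.3 to 68.0 and 28.8 to 74.3 CPM, so that gene ID alone separated them. All 143 eligible genes of 6 or more transcripts were among the 200, against 57 of the 331 eligible genes of 5 transcripts. By expression, the gene nearest to the limit was AnMG0508951400, whose lowest library held 5.03 CPM, while AnMG0004312000, with 6 transcripts, fell short with 4.91 CPM.

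The study sequenced RNA from 1 corolla per plant, taken from buds of 5 to 10 mm at flower stages 12 to 13, with 3 plants for each of 7 combinations of alleles at ROSEA (ROS) and ELUTA (EL), loci that act on flower pigmentation. The plants grew on outside benches. ROSji7_elji7 (magenta flowers) carries the dominant ROS and the recessive EL allele of A. majus stock JI7, and ROSji7_ELstr (eluta flowers) carries the JI7 ROS allele with the dominant EL allele of A. m. striatum. The genotype rosdor_eldor (white) carries the recessive alleles of stock rosea-dorsea at both loci. ROSpse_elpse (magenta) has the dominant ROS and recessive EL alleles of A. m. pseudomajus, and ROSpse_ELstr (eluta) combines pseudomajus ROS with striatum EL. The genotype rosstr_ELstr (white) carries the recessive ROS and the dominant EL allele of striatum. The genotype rosrec_elpse (pale) carries a recombinant ROS allele, whose upstream part comes from striatum and whose downstream part comes from pseudomajus, with the recessive pseudomajus EL allele. By their plant numbers, each genotype came from 1 plant family, except rosdor_eldor, whose 3 plants came from the families of ROSpse_elpse, ROSpse_ELstr and rosstr_ELstr. For ROSji7_elji7, ROSji7_ELstr and rosrec_elpse, family and genotype therefore cannot be told apart.

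Plant genes give rise to several transcripts through alternative splicing, in which retained introns are the most frequent form, and through the use of different transcription start sites and polyadenylation sites. Transcripts of 1 gene can encode different proteins, carry different untranslated regions, or be short-lived products with a premature stop codon. Which transcript prevails can differ between tissues, conditions and alleles. The files name these genes only by their IDs, so no function is given for any of them, and the transcripts are told apart below by their annotated start, end and length.

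The libraries held 8926585 to 41860890 estimated reads. The reads were 50 bp long and single-end, so that the share of a transcript is an estimate which divides reads among overlapping transcripts, and the error of that division is not part of the deposited values. One library stood apart. In ROSji7_elji7 replicate 1 the transcript ending furthest downstream held on average 58.5% of a gene's TPM over the 188 genes, against 33.2 to 42.0% in the other libraries. The effective number of transcripts, the inverse of the summed squared shares, had a median of 1.73 there and of 1.97 to 2.28 elsewhere. It was the lowest of all libraries in that plant for 79 of the 188 genes (42.0%) and for 36.5% of the 5481 other genes with at least 2 transcripts and 5 CPM in all libraries. The median ratio of the effective to the annotated length of these genes' transcripts was 0.637 in that library and 0.749 to 0.848 in the others. Its part in the shares of single genes was not tested. Several of the counts and differences below are given with and without it, and the other values include it unless stated.

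**Figure D1:**
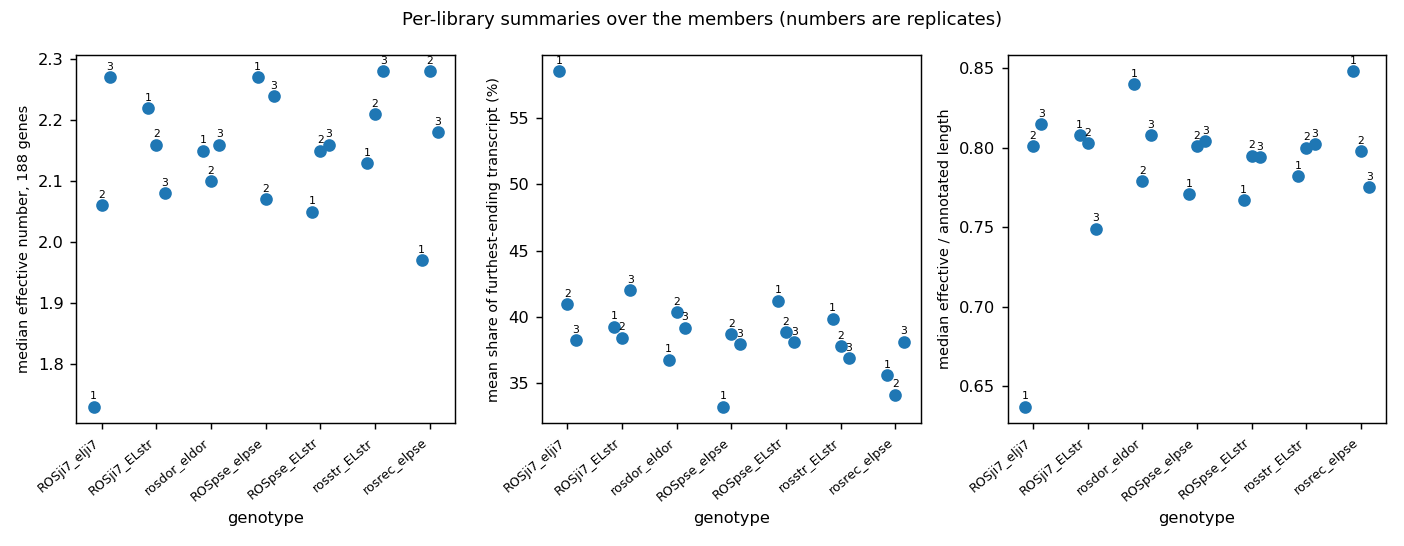
Summaries over the 188 genes in each of the 21 libraries, grouped by genotype on the x axes, with 1 point per plant and the replicate number beside it. The y axes show the median effective number of transcripts, the mean share (%) of the transcript ending furthest downstream, and the median ratio of effective to annotated transcript length. ROSji7_elji7 replicate 1 lies apart from the other 20 libraries in all 3 panels, at 1.73 transcripts, 58.5% and 0.637.

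Most of the annotated transcripts contributed little. The leading transcript held at least 50% of the gene's TPM in 129 of the 188 genes (68.6%) and at least 90% in 14 (7.45%), with a range from 24.9 to 98.7% and quartiles of 46.8 and 75.9%. The effective number of transcripts had a median of 2.17 (quartiles 1.62 and 2.80). A single transcript made up 90% of the TPM in 14 genes, 2 transcripts did so in 57, 3 in 63, 4 in 40, 5 in 11 and 6 in 3. Of the 1174 transcripts, 280 (23.9%) averaged under 1% of their gene, and 36 had no read in any library.

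Genes of 5 and of 6 transcripts had median leading shares of 61.2 and 60.6%, and the 47 genes of 7 or more had 51.7%. Their median effective numbers were 1.97, 2.14 and 2.69. The 5481 other genes, most of which have fewer transcripts, had a median leading share of 82.0% and a median effective number of 1.43, and 94.6% of them had a transcript that held at least 50%. A gene with few annotated transcripts cannot reach a high effective number, so this contrast is a description and was not tested.

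**Figure D2:**
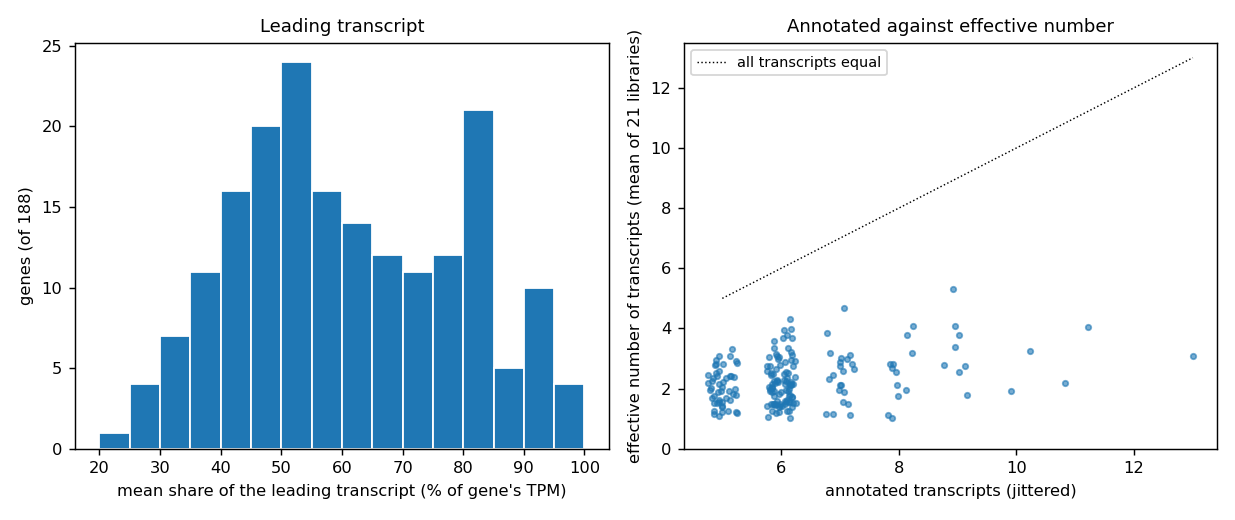
Left, a histogram of the 188 genes by the mean share of their leading transcript (% of the gene's TPM, mean of 21 libraries). Right, the effective number of transcripts (y axis, mean of 21 libraries) against the number of annotated transcripts (x axis, points moved sideways for legibility), with a dotted line where all transcripts would be equal. Every gene lies below the line, the highest at an effective number of 5.32.

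The annotated transcripts of these genes were compared by their start, end and length alone, and not by their inner structure. Their ends differed more often than their starts. A gene had a median of 2 annotated starts and 5 ends. In 45 genes all transcripts shared 1 start, and in 0 genes did they share 1 end. Of the 986 transcripts other than the leading one, 464 shared its start alone, 38 its end alone, 25 both, and 453 neither, while 6 were placed on the other strand. Of the 980 on the strand of the leading transcript, 728 ended upstream of it and 189 downstream, with a median distance between ends of 1398.5 bases and between starts of 28.5 bases. The 25 transcripts with both ends in common differed only within, and 18 of these were longer than the leading transcript, by a median of 103 bases. Those 18 held a median of 0.709% of the gene's TPM. Of all 25, 8 held at least 5%, as did 160 of the 464 transcripts that shared the start alone and 191 of the 453 that shared neither.

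The leading transcript was the longest of its gene in 66 of the 188 genes and the shortest in 20. It ended furthest downstream in 87 and was the one numbered T01 in 86. Leading transcripts had a median length of 1845.5 bases and the others one of 1492 bases. The genes lie on 138 assembly sequences, with at most 5 on any of them, and 70 overlap another annotated gene, 61 on the same strand and 26 on the opposite strand. Whether the reads were counted by strand is not given in the sources used here, so reads of overlapping genes may be shared between them.

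The 10 genes with the most transcripts divided their TPM in different ways. AnMG0509266900, with 13 transcripts (scaffold1428, 22796 to 34268, plus strand), was led by T02, a short transcript of 862 bases with 49.9% of the TPM on average. T05 (3838 bases) and T04 (5061 bases), which start 1650 bases further downstream and end 7496 and 8866 bases beyond T02, held 16.8 and 16.3%. T02 ranged from 17.1 to 60.8% over the libraries with a median of 52.4%, and the lowest value was that of ROSji7_elji7 replicate 1, where T04 held 46.6%. The next lowest was 29.2%, in rosrec_elpse replicate 1. The effective number of this gene was 3.09.

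In AnMG0206970200, with 11 transcripts, 2 of them held most of the TPM: T01 (1988 bases) held 54.7% and T08 (787 bases), which ends 1930 bases before T01, held 38.7%, while 7 transcripts stayed under 1%. T08 was at 7.90% in ROSji7_elji7 replicate 1 and at 27.1 to 49.0% in the other 20 libraries. AnMG0000596700, the other gene with 11 transcripts, spread its TPM over more of them (effective number 4.05). Its T09, of 776 bases, was at 0% in ROSji7_ELstr replicate 2, at 7.93% in ROSji7_elji7 replicate 1, and at 12.6 to 40.4% elsewhere.

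The 2 genes with 10 transcripts differed as well. In AnMG0000902700, T07 (1847 bases) led in all 21 libraries with 32.4 to 62.8%, and T01 (3166 bases) followed with a mean of 22.9%. In AnMG0001116400, T02 (2298 bases) held 66.1% and T01, which shares its start and ends 137 bases further on, held 28.3%. Of the 5 named genes with 9 transcripts, AnMG0004239100 was led by T02 in every library, with 46.8 to 86.8%. In AnMG0004301300, T06 held 32.4%, T08 28.9%, T03 19.4% and T07 11.7%, and the within-genotype SD of the first 3 of these shares was 2.48 to 3.72 percentage points. In AnMG0004338100, T04 (698 bases) averaged 53.6% and led in 19 of 21 libraries. In AnMG0005056800, T04 (4075 bases) averaged 43.9%, and its plants differed widely, with 69.7, 20.5 and 15.8% in ROSpse_ELstr. In AnMG0002368100, T03 (1844 bases) averaged 39.0% and was higher in the rosrec_elpse plants, at 63.9, 69.0 and 56.5%, than in any other library, where it reached at most 49.9%. Its share was not called across the genotypes by limma.

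**Figure D3:**
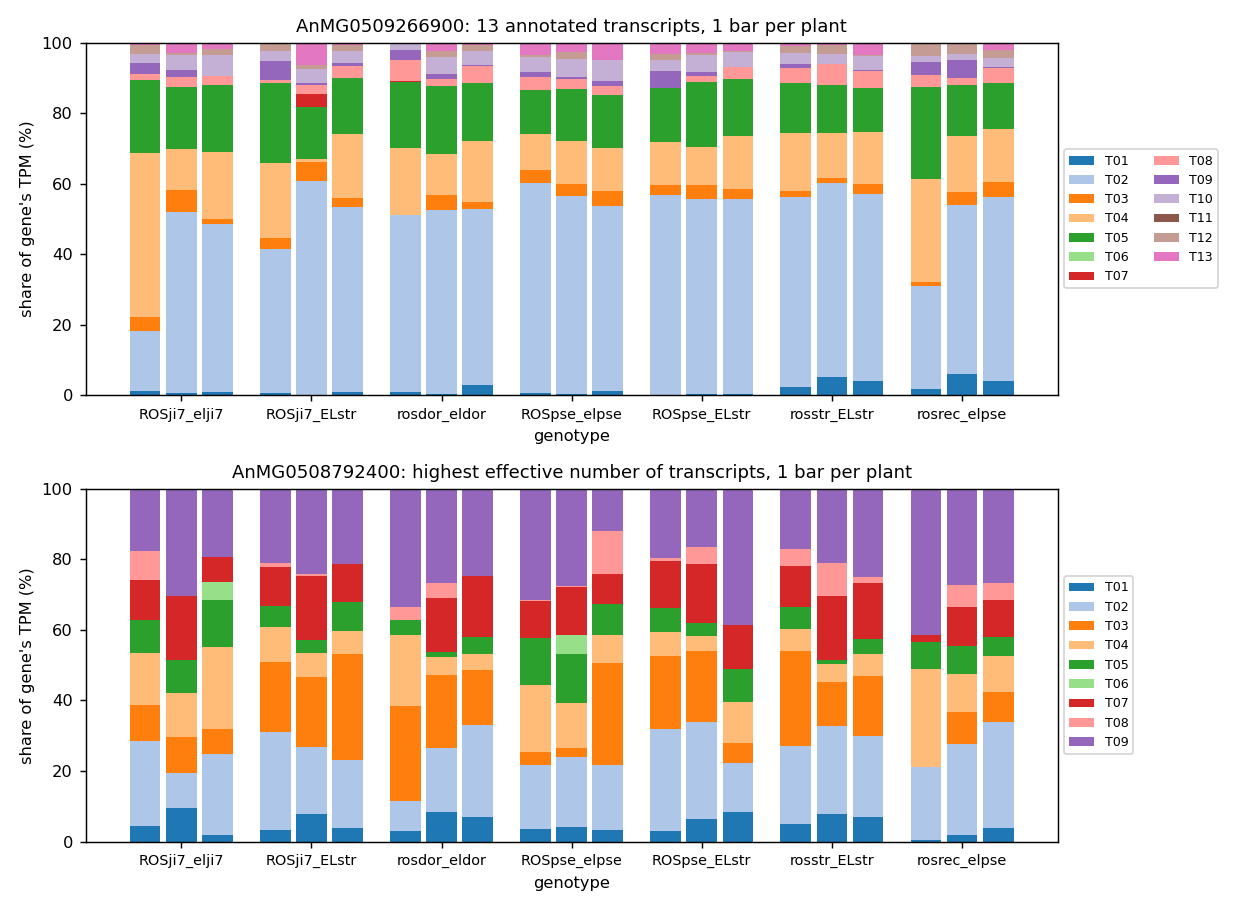
Stacked bars of the share of each transcript in the gene's TPM (y axis, %), 1 bar per plant in the order of replicates 1 to 3 within each genotype (x axis), for AnMG0509266900 with 13 transcripts (top) and for AnMG0508792400, the gene of highest effective number (bottom). T02 of the first gene is the widest band in most plants, while no transcript of the second gene exceeds 41.4%.

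The most evenly divided gene was AnMG0508792400 (9 transcripts, effective number 5.32). Its leading transcript, T09 with 1142 bases, averaged 24.9%, and T02 (4655 bases), which shares its start and ends 5301 bases further downstream, averaged 21.4%. T09 led in 10 of the 21 libraries, and the leading transcript differed among genotypes, with 3 transcripts leading in at least 1. AnMG0003033300, AnMG0000621600, AnMG0004301300 and AnMG0006490900 followed, with effective numbers of 4.69, 4.31, 4.08 and 4.07. In AnMG0006490900, T05 (1075 bases) ranged from 8.98 to 13.7% over all plants. Its leading T08 (801 bases) was at 19.6% in ROSji7_elji7 replicate 1 and at 34.9% or more in the other libraries.

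At the other extreme, the 5 genes of lowest effective number were made up almost wholly of 1 transcript. AnMG0005278000, also the most highly expressed of the 188 with a mean of 1436 TPM, had 8 annotated transcripts, of which T01 (2699 bases) held 98.7%. T01 was at 98.2 to 99.7% in 20 libraries and at 87.0% in ROSpse_elpse replicate 1. AnMG0006028200 (98.5%), AnMG0004243400 (97.3%), AnMG0000465900 (96.4%) and AnMG0006338100 (94.0%) were led by 1 transcript in all 21 libraries. In the first 3 of these 4 genes the lowest leading share was found in the same library, ROSpse_elpse replicate 3, with 94.0, 89.3 and 78.4%.

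Of the 4 next most highly expressed genes, the first 2 divided their TPM between a longer and a very short transcript. AnMG0206970800 (731 TPM) was split between T02 of 1862 bases (51.7%) and T07 of 275 bases (42.4%), which share a start. AnMG0006658200 (693 TPM) was split between T01 of 1156 bases (49.7%) and T04 of 317 bases (43.5%), which ends 2092 bases upstream. AnMG0002333700 (578.5 TPM) was led by T05 of 948 bases (66.0%), followed by T01 of 2297 bases (28.8%). AnMG0003330100 (481 TPM) was led by T05 of 1842 bases (82.1%), followed by T04 of 2377 bases (5.84%). T07 of AnMG0206970800 had 0 reads in ROSji7_elji7 replicate 1. A short transcript reaches a given TPM with fewer reads: T07 rested on a median of 269 reads per library, against 14224.5 for T02.

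Across the 7 genotypes, the same transcript led in 133 of the 188 genes (70.7%), 2 transcripts took the lead in 50 genes and 3 in 5. The share among the 5481 other genes with the same leading transcript throughout was 84.5%. This share fell with the number of transcripts. It was 87.6, 81.3 and 77.5% in other genes of 2, 3 and 4 transcripts. Among the 188 it was 75.5, 71.7 and 63.8% in genes of 5, of 6 and of 7 or more. In single plants the lead changed more often: 78 genes (41.5%) had 1 leading transcript in all 21 libraries, and 99 had 1 in the 20 libraries other than ROSji7_elji7 replicate 1. Without that library, 143 genes had the same leading transcript in all 7 genotypes. In 16 genes (8.51%, against 3.38% of the other genes), 2 genotypes were each led in all 3 plants by different transcripts. Among them, AnMG0000037800 was led by T01 in every ROSji7_ELstr plant (mean 52.4%) and by T02 in every rosdor_eldor plant (63.9%) and every ROSpse_ELstr plant (62.4%). AnMG0006658200 was led by T01 in ROSji7_elji7 (69.4%, and 57.4% without replicate 1) and ROSpse_ELstr (61.6%) and by T04 in rosrec_elpse (61.0%), in every plant of each. These 16 were picked by their shares, and the other genes were not matched for number of transcripts. Their number is therefore a description and shows nothing particular to the 188 genes.

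For the test of genotype, 562 transcripts in 184 of the 188 genes had a mean share between 5 and 95% and were tested. Of the rest, 608 averaged under 5% and 4 over 95%. The differences between plants of 1 genotype were of the size of those between genotypes. The within-genotype SD of a share had a median of 6.74 percentage points (quartiles 4.29 and 9.58). The 7 genotype means of a transcript had a median SD of 4.35 points, and 3.89 points would follow from the within-genotype SD alone. These SDs include ROSji7_elji7 replicate 1 and were not taken without it. A share spanned a median of 29.6 points over the 21 libraries and 12.3 points over the 7 means, and 91 transcripts in 64 genes spanned more than 50 points over the libraries. Without ROSji7_elji7 replicate 1, the 2 medians were 22.6 and 9.70 points, and 24 transcripts in 22 genes spanned more than 50 points. The tested transcripts had a median of 328 reads per library, and 146 of the 562 had a median under 100. The 281 transcripts with more reads had a median SD of 7.73 points and the 281 with fewer reads one of 5.47.

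The question put to each transcript was whether its share differed among the 7 genotypes. Shares were compared as the log2 odds of a transcript against the rest of its gene with limma, with p-values adjusted over the 10298 transcripts tested in 5669 genes. In this test 1 of the 562 transcripts passed an adjusted p of 0.05 (0.178%), and the background over all tested transcripts was 0.282%. At an unadjusted p of 0.05, 48 of the 562 (8.54%) passed, with a background of 10.5%. The called share belonged to T06 of AnMG0508951400. Leaving out 1 library gave 0 to 3 called shares. Without ROSji7_elji7 replicate 1 the count was also 1, and the called share was that of T01 of the same gene (adjusted p = 0.0497). Of the 566 transcripts then tested, 57 (10.1%) passed unadjusted, with a background of 10.3%. The plants of a group are numbered as separate plants, so that the p-values rest on the spread between plants of 1 genotype. Except in rosdor_eldor these plants are of 1 family, and that spread does not cover differences between families.

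AnMG0508951400 (scaffold496, 246354 to 257673, minus strand) has 6 transcripts that share 1 start and end at different places. T01, the longest at 4263 bases, ends furthest downstream. T06 has 2228 bases and ends 4597 bases before T01, while the ends of T02 to T05 lie 208 to 1599 bases before that of T01. The gene overlaps 1 other annotated gene on its strand.

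In rosrec_elpse, T06 held 93.3, 98.7 and 100% of the gene's TPM in the 3 plants. In rosdor_eldor it held 29.1, 20.7 and 0%, and in ROSpse_elpse it held 5.15, 6.26e-06 and 31.3%. The 3 rosrec_elpse plants lay far above every other plant, without overlap. In ROSpse_ELstr the share of T06 was 14.5, 11.5 and 0.815%, and in rosstr_ELstr it was 0, 3.11 and 24.4%. In ROSji7_ELstr it was 0, 0 and 20.5%, and in ROSji7_elji7 it was 0, 0 and 1.26%. T06 was thus spread unevenly among plants of the same genotype in the 6 other genotypes, with 6 of their 18 libraries at 0 reads.

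T01 had 0 reads in all 3 rosrec_elpse plants and 101.2 to 2557 reads in each of the other 18, where it held 16.5 to 66.5% of the TPM. Set against a floor of 3 counts per library, its CPM in rosrec_elpse was at least 87.6-fold lower than in the lowest of the other libraries. The other 4 had few reads there as well: T01 to T05 together had 13.0, 9.01 and 0 reads in rosrec_elpse and 359 to 5061 reads elsewhere.

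The level of T06 itself did not set rosrec_elpse apart in this way. It was 2.26, 5.35 and 9.29 TPM in the 3 rosrec_elpse plants and 0 to 8.79 TPM in the other 18, and the 2 ranges overlap. T01 to T05 summed to 0.162, 0.0721 and 0 TPM in rosrec_elpse and to 11.0 to 50.8 TPM elsewhere, without overlap. The gene as a whole had 5.03, 11.7 and 19.7 CPM in rosrec_elpse and 49.0 to 190.5 CPM in the other libraries. Its total differed among the 7 genotypes (edgeR quasi-likelihood test, adjusted p = 0.00385). All 3 rosrec_elpse plants are of 1 family, and none of the other plants are of it, so genotype and family cannot be told apart here. The range of library numbers is also largely bound up with this genotype. Its replicate 1 is in the low range (under 3000) and its replicates 2 and 3 are in the high range (over 8000), which holds 3 libraries. The other library of the high range, rosstr_ELstr replicate 1, had 4299 reads of T01 to T05. In the low range, ROSji7_ELstr replicate 3 had 2622 such reads and rosdor_eldor replicate 1 had 359. ROSpse_elpse replicate 1 had 1096 and ROSpse_ELstr replicate 1 had 1100. What the ranges of library numbers stand for is not given in the sources used here.

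**Figure D4:**
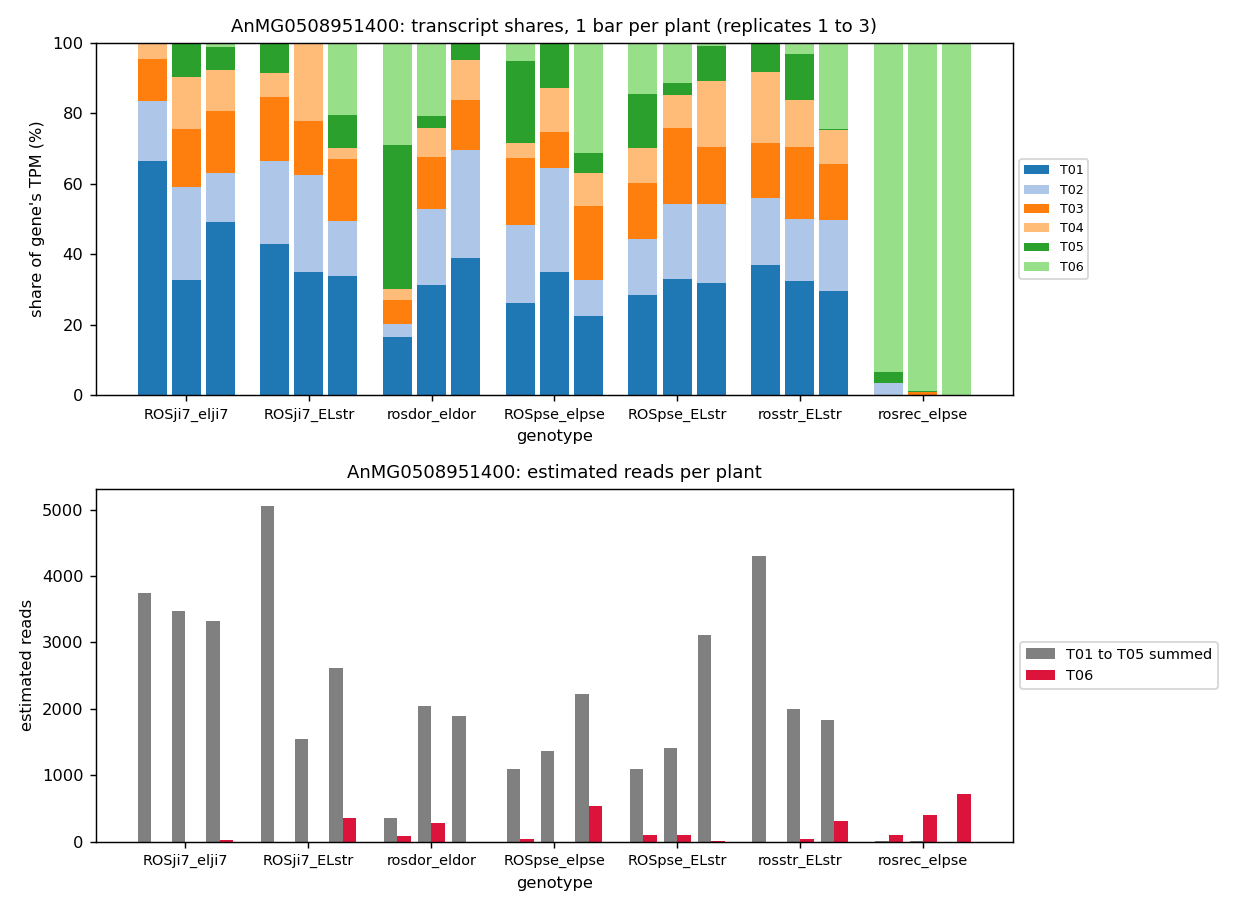
Top, stacked bars of the share of each of the 6 transcripts in the TPM of AnMG0508951400 (y axis, %), 1 bar per plant in the order of replicates 1 to 3 within each genotype (x axis). Bottom, the estimated reads of T06 and of T01 to T05 summed, in the same order. T06 fills 93.3 to 100% of the bars of rosrec_elpse, where T01 to T05 together have at most 13.0 reads.

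Across the 7 genotypes the adjusted p was 0.0369 for T06 and 0.0513 for T01 (limma). Leaving out 1 library moved the adjusted p of T06 between 0.0248 and 0.175. The call was lost without any of 11 single libraries, namely replicates 1 and 2 of ROSji7_elji7 (0.0723 and 0.0856), of ROSji7_ELstr (0.0512 and 0.0784) and of ROSpse_elpse (0.0512 and 0.0508), replicate 2 of ROSpse_ELstr (0.0600) and of rosstr_ELstr (0.0671), and replicates 1 to 3 of rosrec_elpse (0.0720, 0.162 and 0.175). The adjusted p was 0.00513 on the arcsine scale, 0.0934 with a pseudocount of 0.1 TPM, 0.0618 with shares of estimated reads, and 0.315 with the range of library numbers as a term. The middle range alone, which holds 13 of the 21 libraries, has none of rosrec_elpse and says nothing of this call. Between rosrec_elpse and ROSpse_elpse, T06 differed by 6.43 ± 1.32 (SE) log2 odds, with an adjusted p of 0.0851 in limma. The usage test of edgeR, run on the estimated reads, called T01 in that pair (adjusted p = 0.00575) and between rosrec_elpse and rosdor_eldor (adjusted p = 0.00405). It called T06 in neither pair.

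The transcripts next in order of p did not pass, and their values are given as such. T05 of AnMG0004531100 (6 transcripts, adjusted p = 0.0513 in limma) held 32.6, 34.7 and 24.5% in the ROSpse_elpse plants. In the other 18 libraries it held 37.3 to 81.8%, so that the 3 plants lay below all others, the nearest being rosdor_eldor replicate 1. T04 does not overlap T05: on scaffold334 (minus strand) it was placed at 69031 to 70996 and T05 at 64304 to 66711. T04 held 21.3, 39.9 and 30.6% in ROSpse_elpse and at most 20.9% elsewhere. Leaving out 1 library gave adjusted p-values from 0.00201 without rosdor_eldor replicate 1 to 0.163 without ROSpse_elpse replicate 3, and 8 of 31 settings called T05.

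In AnMG0009066800 (6 transcripts), T01 and T02 share a start and their ends lie 239 bases apart. T01 held 31.3, 61.6 and 40.9% in ROSpse_ELstr and 26.5, 32.8 and 40.9% in rosstr_ELstr. It held 11.5, 7.12 and 4.29% in rosrec_elpse, and 9.27 to 28.2% in the plants of the 4 other genotypes. T01 led in all 3 ROSpse_ELstr plants and T02 in all plants of ROSji7_elji7, ROSji7_ELstr, rosdor_eldor and ROSpse_elpse. ROSji7_ELstr, which carries the same EL allele as ROSpse_ELstr and rosstr_ELstr, had 11.8, 12.6 and 28.0% for T01. The adjusted p across genotypes was 0.0639 (limma).

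T05 of AnMG0001220100 (5 transcripts), which shares the end of the leading T02 and starts 12789 bases further downstream, had 0, 0 and 0.0841 reads in the rosrec_elpse plants. It also had 0 reads in ROSpse_elpse replicate 1, and it held 3.17 to 46.2% in the other 17 libraries. The gene itself was expressed throughout, at 48.2 to 104 TPM. Across the 7 genotypes the adjusted p of T05 was 0.0977 in limma, and with 1 library left out it ran from 0.0118 without ROSpse_elpse replicate 1 to 0.292 without rosrec_elpse replicate 2. Of 31 settings, 2 called it. The edgeR usage test called T05 between rosrec_elpse and ROSpse_elpse (adjusted p = 0.0204) and between rosrec_elpse and rosdor_eldor (adjusted p = 0.00405), whereas limma gave 0.330 and 0.111. The highest share of T05, 46.2%, was in ROSji7_elji7 replicate 1, where T02 had 0 reads.

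T01 of AnMG0001333600 (5 transcripts) held 88.4, 84.6 and 79.9% in rosstr_ELstr, above all other libraries, of which the highest held 79.1%. In rosrec_elpse it held 51.2, 49.3 and 53.6%, and in ROSpse_elpse replicate 1 it was lower, at 48.5%. The adjusted p was 0.139 (limma). The gene total was called across the genotypes by edgeR (adjusted p = 0.0254), with 21.3 ± 1.07 TPM (SD, n = 3) in rosstr_ELstr and 27.4 to 37.3 TPM on average in the others.

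**Figure D5:**
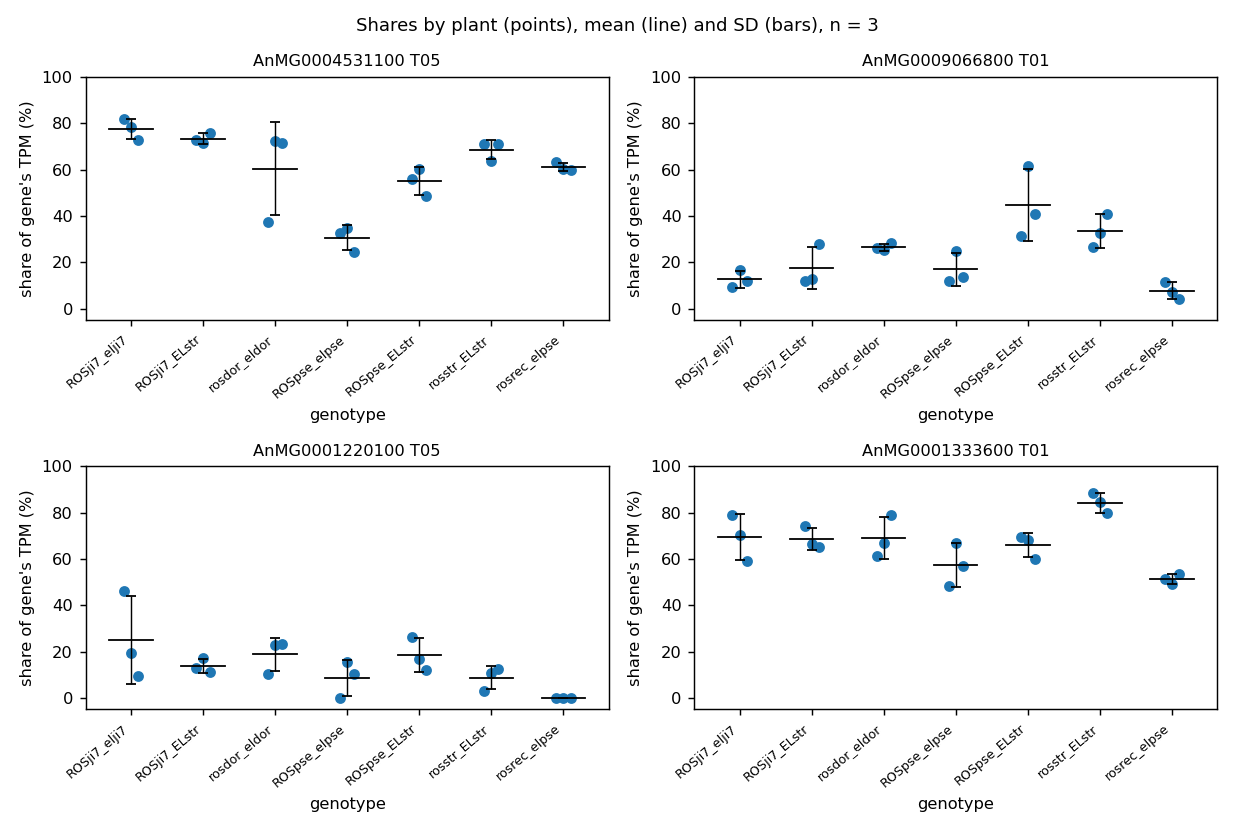
Share of 1 transcript in the gene's TPM (y axes, %) in each plant (points) of the 7 genotypes (x axes), with the mean (line) and SD (bars, n = 3), for the 4 genes that follow AnMG0508951400 in order of p. T05 of AnMG0004531100 is lowest in ROSpse_elpse (24.5 to 34.7%), and T05 of AnMG0001220100 is at or near 0% in rosrec_elpse.

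The 5 remaining genes named by the order of p had adjusted p-values between 0.168 and 0.284 (limma). T02 of AnMG0001549800 held 4.41, 3.70 and 4.87% in rosrec_elpse and 5.81 to 14.3% in the other 18 libraries, without overlap. T01 of AnMG0005097100, a transcript of 5300 bases, held 36.3, 26.0 and 30.2% in rosrec_elpse and at least 38.3% in all others, with 72.7, 61.8 and 76.1% in ROSpse_elpse. T03 of AnMG0001913400 held 24.5, 37.0 and 28.9% in rosrec_elpse and 8.99, 0 and 0% in ROSji7_ELstr, and the other genotypes lay between and overlapped with both. T02 of AnMG0508514300 averaged 0.197% ± 0.340 in ROSpse_elpse, 1.14% ± 0.814 in ROSji7_elji7 and 9.77% ± 2.54 in rosstr_ELstr (SD, n = 3 each). AnMG0000593800 is an unusual model. Its T01 was placed on the minus strand of scaffold674 at 93.0% identity and T02 and T06 on the plus strand, and its span from 256734 to 494512 overlaps 27 other genes on the plus strand and 17 on the minus strand. T01 held 41.2, 45.9 and 39.8% in rosstr_ELstr and 52.5, 20.4 and 42.1% in rosrec_elpse. In the other genotypes it held 62.8 to 88.1%, apart from rosdor_eldor replicate 3 with 41.2%.

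Between single pairs of genotypes, limma called none of the 562 transcripts with all libraries and no covariate. For the JI7 alleles against the rosea-dorsea alleles (ROSji7_elji7 against rosdor_eldor) it called 0, with a background of 0.0388%, and 78 passed an unadjusted p of 0.05, 13.9% against a background of 15.7%. Without ROSji7_elji7 replicate 1, 0 were called (background 0.0386%) and 14 of 566 passed unadjusted, 2.47% against a background of 4.19%. For the EL alleles under JI7 ROS (ROSji7_ELstr against ROSji7_elji7), 0 were called (background 0.0291%) and 37 passed unadjusted (background 7.45%). Without ROSji7_elji7 replicate 1, 0 were called (background 0%) and 12 passed unadjusted (background 2.92%). For the EL alleles under pseudomajus ROS (ROSpse_ELstr against ROSpse_elpse), 0 were called (background 0%) and 28 passed unadjusted (background 4.98%). Without ROSji7_elji7 replicate 1, 0 were called (background 0.0966%) and 48 of 566 passed unadjusted, 8.48% against a background of 7.33%. With plant family as a term, 11 were called (background 2.44%), a contrast that then rests on 1 rosdor_eldor plant in each family, and 1 was called without ROSpse_ELstr replicate 1. The interaction of EL with ROS gave 0 calls (background 0.0291%) and 42 unadjusted (background 9.07%).

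For ROSpse_elpse against rosdor_eldor, 0 were called (background 0%) and 27 passed unadjusted (background 5.78%). Without ROSji7_elji7 replicate 1, 0 were called (background 0%) and 45 of 566 passed unadjusted, 7.95% against a background of 8.36%. With plant family as a term 55 of 567 were called, against a background of 10.3%. Since each family holds 1 rosdor_eldor plant, that fit compares the 3 ROSpse_elpse plants with rosdor_eldor replicate 1 alone, the library with the fewest reads. Without that library, and with no family term, 1 was called. For ROSpse_ELstr against rosstr_ELstr, 0 were called (background 0%) and 13 passed unadjusted (background 2.82%). For the recombinant against ROSpse_elpse, 0 were called (background 0%) and 62 passed unadjusted (background 8.47%). Without ROSji7_elji7 replicate 1, which enters this pair only through the shared estimate of the spread, 1 was called, T01 of AnMG0005097100 (background 0.164%). Of the 566 then tested, 88 passed unadjusted, 15.5% against a background of 11.5%. Without rosdor_eldor replicate 1, 1 was called as well. Against rosdor_eldor, 0 were called (background 0%) and 47 passed unadjusted (background 8.23%), and 1 was called without ROSpse_elpse replicate 1. Without ROSji7_elji7 replicate 1, 0 were called (background 0%) and 80 of 566 passed unadjusted, 14.1% against a background of 12.6%. The edgeR usage test called 3 of the transcripts between rosrec_elpse and ROSpse_elpse (background 0.0688%) and 2 between rosrec_elpse and rosdor_eldor (background 0.0492%). It called 0 in ROSji7_elji7 against rosdor_eldor (background 0.0983%), ROSji7_ELstr against ROSji7_elji7 (background 0.059%), ROSpse_elpse against rosdor_eldor (background 0.00983%), the 2 other pairs (background 0%) and the interaction (background 0.0295%). Besides the T01 and T05 described above, it called T05 of AnMG0003685300 (adjusted p = 0.0446 between rosrec_elpse and ROSpse_elpse), a gene named here after its values were seen. These comparisons share samples, rosrec_elpse, ROSpse_elpse and rosdor_eldor among them.

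The precision of these comparisons was limited. A difference between 2 genotypes had a median SE of 0.52 log2 odds over the 562 transcripts, and the interaction one of 0.73. The median absolute difference in mean share ran from 2.53 percentage points between ROSpse_ELstr and rosstr_ELstr to 5.27 points between ROSji7_elji7 and rosdor_eldor, which was 2.86 points without ROSji7_elji7 replicate 1. Differences of over 20 points were found for 4 to 21 transcripts per pair. For ROSji7_elji7 against rosdor_eldor there were 21 with and 6 without replicate 1. For ROSji7_ELstr against ROSji7_elji7 there were 10 with and 3 without the same library. The median absolute difference of that pair was 4.52 points with it and 2.35 without it. A share that did not pass is not shown to be equal.

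The effective number of transcripts was also close among the genotypes. The mean of the 3 library medians was 2.02 ± 0.273 in ROSji7_elji7 (SD, n = 3) and 2.12 to 2.21 in the other 6 genotypes, and the 3 plants of ROSji7_elji7 had 1.73, 2.06 and 2.27.

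The summed expression of each gene was tested apart from its division. In the edgeR quasi-likelihood test across the 7 genotypes, 29 of the 188 gene totals passed an adjusted p of 0.05 (15.4%), with a background of 12.1% among the 24674 genes tested. The count of called totals among the 188 was 18 without rosrec_elpse replicate 2 and 19 without rosrec_elpse replicate 3. Of the 29, AnMG0001501300 and AnMG0001503500 had identical test values (edgeR, F = 6.15, adjusted p = 0.0232). They may not be separate results. AnMG0004243400 (adjusted p = 0.00164) kept T02 at 89.3 to 98.9% while its total moved. It was highest in ROSpse_elpse, with 282, 268 and 265 CPM, with 75.3, 85.0 and 75.1 CPM in rosrec_elpse, and all 3 ROSpse_elpse plants lay above every other plant. AnMG0000465900 (adjusted p = 0.00588) had 504, 487 and 452 CPM in ROSpse_elpse, above every other library, and 156, 190 and 184 CPM in ROSpse_ELstr. AnMG0006338100 (adjusted p = 0.00943) had 335 ± 30.2 CPM in rosstr_ELstr and 114 ± 7.18 CPM in rosrec_elpse (SD, n = 3 each). In bulk corolla RNA, a change in the share of a cell type and a change in the RNA per cell cannot be told apart.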

How the data were processed

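The corolla RNA of 21 plants was sequenced as 50 bp single-end libraries, per the labels' protocols. The submitters' processing notes name cutadapt 1.16, Salmon 0.9.1 and DESeq2, with no role given. The deposited tables give, per transcript, the authors' estimated counts (NumReads), TPM, length and effective length. Effective lengths differ between libraries, so TPM shares carry that correction. A deposited annotation gives the placement of each transcript with the authors' alignment score; its assembly version is not given in the sources used here, and the sequences of the transcripts are not used here. The members and lists were chosen with earlier results of these data known.

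A share is a transcript's TPM over its gene's summed TPM. Shares were tested with limma 3.58.1 in R 4.3.3 on log2 of (TPM + 0.5) over (the rest of the gene + 0.5), with 1 mean per genotype, all 21 libraries, a prior variance that follows the mean reads, and Benjamini-Hochberg adjustment over 10298 transcripts with mean shares of 5 to 95% in genes of at least 2 transcripts and 5 CPM in every library. Differences are on this scale, which understates those of low transcripts. Gene totals were summed, rounded estimated counts tested with edgeR 4.0.16 (quasi-likelihood, TMM, at least 0.5 CPM in 3 libraries). Alternatives were the edgeR usage test (diffSpliceDGE), a DESeq2 1.42.0 likelihood ratio test, other pseudocounts, filters and scales, series and family terms, and each library left out. The limma share test and the edgeR test of gene totals were tried on simulated data, and the alternatives were not.

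Genes named in the text are the 10 with most transcripts, the 5 highest and 5 lowest in effective number, the members holding the 10 smallest adjusted p-values for shares across genotypes, those with a called switch of the leading transcript, and the 5 with the highest TPM. Genes of the lead changes, of the gene totals and of the closing section were named after their values were seen, unless they are also among these. Plants of 1 genotype carry their own plant numbers, and replicates were numbered in the order of deposition. Salmon's division of 50 bp reads between overlapping transcripts adds error that replicates show only in part.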

Additional observations from a re-analysis of the deposited data

How the results depend on the processing

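No paired analysis was possible because the labels give plants no replicate numbers shared between genotypes. Plant families are shared between rosdor_eldor and 3 other genotypes, with 1 rosdor_eldor plant in each, and were fitted as a term. The main count of 1 called share across the 7 genotypes became 5 on the arcsine scale, 5 with shares of estimated reads, 5 with no filter on the mean share, 4 with mean shares of 1 to 99%, 2 with a pseudocount of 0.1 TPM, and 0 with the library number series as a term or in the middle series alone, which holds no rosrec_elpse library. Leaving out 1 library gave 0 to 3. It gave 0 without ROSji7_ELstr replicate 1 or 2, ROSpse_ELstr replicate 2, ROSpse_elpse replicate 2, rosrec_elpse replicate 2 or 3 or rosstr_ELstr replicate 2. It gave 2 without ROSji7_ELstr replicate 3, ROSji7_elji7 replicate 3, ROSpse_ELstr replicate 1, rosdor_eldor replicate 2 or rosrec_elpse replicate 1, and 3 without rosdor_eldor replicate 1 or 3.

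For pairs, the count of 0 became, with plant family as a term, 55 between ROSpse_elpse and rosdor_eldor and 11 between ROSpse_ELstr and ROSpse_elpse, where each family holds a single rosdor_eldor plant. Leaving out 1 library gave 0 to 1 in both pairs and in both pairs with rosrec_elpse, and 0 in the others. Between ROSpse_ELstr and rosstr_ELstr it became 1 with mean shares of 1 to 99%, with no filter, or with only the groups compared. Between rosrec_elpse and ROSpse_elpse it became 3 on the arcsine scale and by edgeR, 2 at 1 to 99%, 5 with no filter, 2 with a pseudocount of 0.1 TPM and 4 with read shares. Between rosrec_elpse and rosdor_eldor it became 3 on the arcsine scale, 2 by edgeR, 1 with a pseudocount of 0.1 TPM and 3 with read shares.

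The 29 called gene totals became 64 with the DESeq2 likelihood ratio test, 19 with the series term, and 18 to 39 without 1 library, with 18 and 19 without rosrec_elpse replicate 2 and 3. The 133 genes with the same leading transcript were 120 to 143 without 1 library and 78 by single libraries. The median effective number of 2.17 was 1.97 with read shares. The pair counts with the family term and by the edgeR usage test have their backgrounds in the pair results above. Most other counts from alternatives, here and above, are given without the share over all tested transcripts or genes. They show how far the main counts moved and nothing particular to these genes. The causes were not tested.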

Other observations

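Some shares were far from all others in 1 library. In ROSji7_elji7 replicate 1, T01 of AnMG0005961400 held 98.9% of the gene's TPM, against 11.6 to 24.8% in the other 20 libraries, and T02, which ends 192 bases before it, held 5.8e-07% against 74.3 to 87.5%. The gene total there, 172.3 TPM, lay within the 125.5 to 426.6 TPM of the other libraries. In the same library T01 of AnMG0002628500 held 94.7%, against 15.4 to 57.4% elsewhere. T01 of AnMG0004650300 held 91.5% there, against 12.4 to 37.0% elsewhere. In all 3 genes the transcript that prevailed there ends downstream of the one that leads over the libraries. These genes were chosen after their values were seen.

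In AnMG0001412200, T03 ends 1677 bases upstream of T01. T03 held 69.4% in rosrec_elpse replicate 1 and 0.823 to 41.1% elsewhere. T01 held 10.6% there and 87.1% in ROSji7_elji7 replicate 1.

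In the 14 genes led by 1 transcript at 90% or more, the lowest leading share was in ROSpse_elpse replicate 3 for 5 genes and in ROSpse_elpse replicate 1 for 4. The median leading share of these genes was 89.5% in ROSpse_elpse replicate 3, and 91.0 to 97.9% in the other 20 libraries. The second transcript was longer than the leading one in 6 of the 14.

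T06 of AnMG0506933300 held 3.58, 6.31 and 5.60% in rosrec_elpse, and in ROSji7_elji7 it held 66.7, 31.5 and 34.9%. It was at 0.000446% in ROSpse_elpse replicate 1 and at 7.35% in rosstr_ELstr replicate 1, and at 16.0 to 42.3% in the remaining libraries. This share was not called across the genotypes by limma.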
